A study of Caenorhabditis elegans with 4 samples.

Results

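The bath and math genes of Caenorhabditis elegans are named for the domains of their products: math genes for the MATH domain, and bath genes for a BTB and a MATH domain in the same protein. Members were chosen by name, as every row of the authors' deposited gene table called bath or math followed by a number. This gave 83 of 37812 gene rows, of which 35 are bath and 48 are math genes. No measured value entered that rule, but the families were selected for description with the FPKM levels and q-values of these same tables known, so counts and medians over them are descriptions. The study measured total RNA from mixed embryos of the 1-cell to the 350-cell stage, released by bleaching from adult N2 (wild-type strain) worms that had been fed OP50 bacteria for 72 h. The control group was N2 with L4440, the empty RNAi vector (2 libraries), and the other was N2 with RNAi against sig-7 (2 libraries), the gene of a nuclear cyclophilin that also carries an RNA-binding domain. The labels state neither how the RNAi was given nor whether the libraries come from independent cultures, so the deposited p-values may reflect technical spread alone. The comparison between the groups addresses transcript levels after depletion of sig-7.

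In MATH-BTB proteins the MATH domain binds a substrate and the BTB domain binds the cullin CUL-3, so that the protein serves as the substrate adaptor of a ubiquitin ligase. The best known of them in the worm embryo is MEL-26, which brings the katanin subunit MEI-1 to CUL-3 for degradation after meiosis, before the mitotic spindle forms. Most other worm MATH proteins have no assigned substrate, and the family is known for its many tandem copies. MATH-33 stands apart from both groups, since it is a ubiquitin-specific protease, a relative of USP7, that removes ubiquitin.

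The files hold 1 pooled FPKM value per group (fragments scaled by transcript length and by the number of mapped fragments), so a value below has no spread of its own, and the depth of each library is unknown. The words rose and fell are kept for genes whose q, the p-value adjusted over the gene table, was under 0.05 in the authors' deposited table. The targeted gene sig-7 itself had control and sig-7 RNAi values of 39.8 and 8.72 FPKM, so that 21.9% of the control level was left. All 15 early embryo markers examined were tested, with 3 that fell and 0 that rose, against 17.3% and 11.2% of all tested genes. As deposited, 10 of the 15 were higher and 5 lower in sig-7 RNAi. The epidermal fate gene elt-1 fell 3.19-fold, from 44.3 to 13.9 FPKM, the endoderm gene end-1 fell 2.56-fold, from 12.2 to 4.77 FPKM, and skn-1, a gene of early blastomere fate, fell 1.65-fold, from 23.1 to 14.0 FPKM. In the other direction, and short of the threshold, end-3 was at 3.13 FPKM in control and 5.63 FPKM in sig-7 RNAi. The list summed to 808.9 and 979.4 FPKM in control and sig-7 RNAi, of which pos-1 alone gave 274.2 and 411.9 FPKM, in a locus of 288 rows and lower with equal totals. The part of these markers in the results below was not tested. The 6 sperm genes examined summed to 0.158 and 0.412 FPKM and the 5 genes of adult soma to 0.644 and 0.701 FPKM, with msp-3, msp-10, msp-31 and spe-11 listed at 0 in both groups. The sig-7 RNAi group had the larger total FPKM, by 1.69-fold. Scaling both groups to the same total lowers every log2 ratio by 0.75, and moves the median of all tested genes, with a pseudocount of 1 FPKM, from -0.03 to -0.55. Over the 16892 rows with the name of a protein-coding gene, by the WBcel235 annotation, the total was 1.40-fold higher. Scaling to the same median ratio of tested genes (0.996 as deposited) turns no direction among the 34 tested members. Of the 15 early embryo markers, 2 were higher with equal total FPKM. Directions below are as deposited. For tested members, math-33 and the list genes named below, those that turn with equal total FPKM are stated. Other list genes may turn as well.

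Bath genes were present at higher levels than math genes in early embryos. The median over all 35 bath genes was 3.25 and 4.71 FPKM in control and sig-7 RNAi, against 0.111 and 0.0543 FPKM over all 48 math genes. Cuffdiff, the authors' testing tool, tested 25 bath genes (71.4%) and 9 math genes (18.8%), compared with 48.9% of the rows with a protein-coding name. Among the untested members, 12 math genes were listed at 0 in both groups, and the other 36 (10 bath and 26 math genes) were at most 0.367 FPKM. By the same annotation 71 members are protein-coding and 11, all of them math genes, are pseudogenes, while bath-43 had no match by name. One of the protein-coding members, math-33, was the highest math gene by far, but its test failed.

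**Figure D1:**
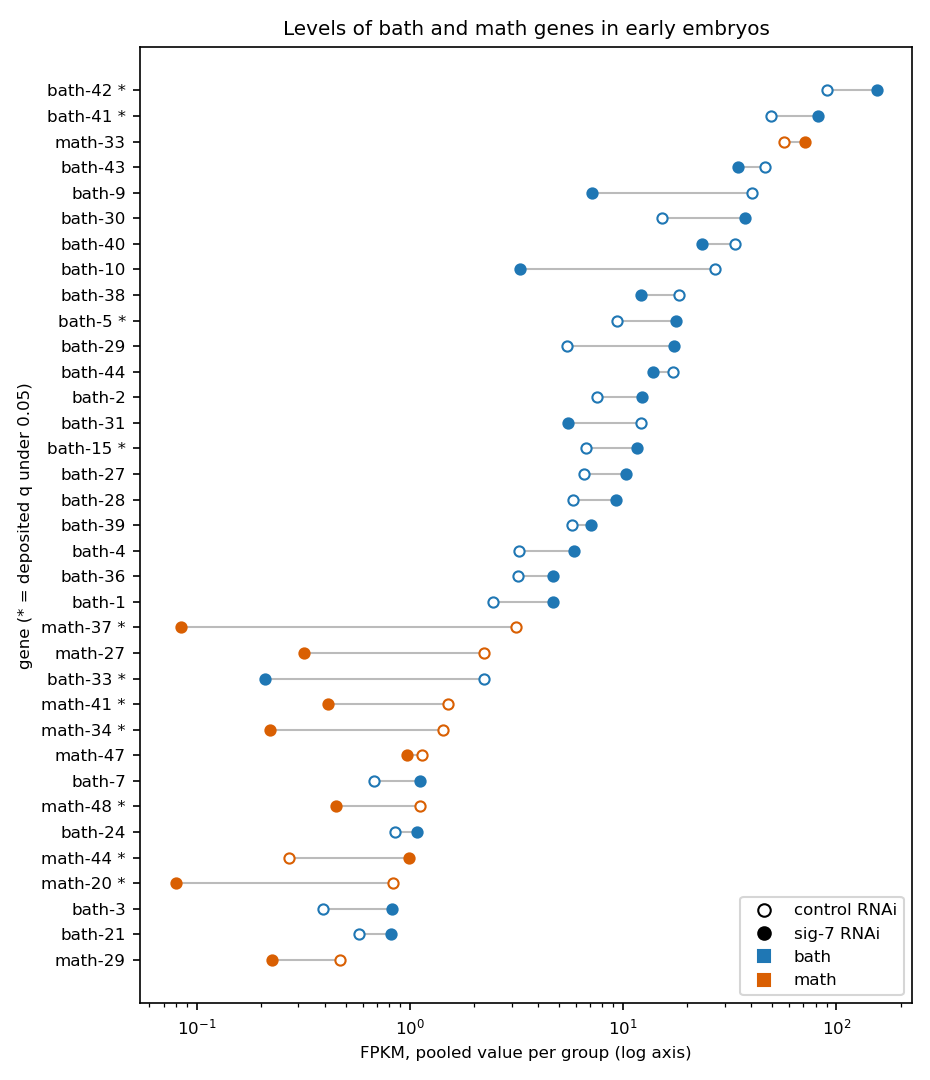
Levels of the 34 tested bath and math genes and of math-33, whose test failed, ordered by the higher of the 2 group values. The x axis is FPKM on a log scale, open points are control RNAi, filled points are sig-7 RNAi, each point is 1 pooled value per group without an error, and stars mark deposited q under 0.05. The highest points are bath-42 at 90.8 and 155.0 FPKM, and apart from math-33 every math gene lies at or below 3.14 FPKM.

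Of the 34 tested members, 6 fell and 5 rose. Over all 10703 tested genes 17.3% fell and 11.2% rose, 28.4% in all, so the share of members called, 11 of 34, was near the background. In the authors' deposited table, at q under 0.01, 3 members fell and 3 rose, against 13.1% and 6.72% of all tested genes, and at q under 0.1 the members' counts were 9 and 8, against 19.8% and 14.2%. Among tested genes with at least 1 FPKM in the higher group 5 members fell and 4 rose, against 18.3% and 12.9%. The isoform table and the table of start site groups each gave 6 members that fell and 5 that rose, where 27.1% and 27.9% of all tested rows were called. The families differed in how the calls were divided, with 1 fall and 4 rises among 25 bath genes, and 5 falls and 1 rise among 9 math genes. These counts are not on an equal footing. Of the 25 bath genes, 7 (3 lower and 4 higher in sig-7 RNAi) lie in a locus of 548 rows, where 0 of 205 tested genes were called. No tested math gene lies in a locus of more than 9 rows. The median log2 ratio with the pseudocount was 0.39 for tested bath genes and -0.76 for tested math genes, and the bath median turned to -0.084 with equal total FPKM. The math figures are no support for a fall of that family. The highest untested row of the whole table lay at 0.457 FPKM, and 0.925% of tested genes, none of them a member, were at or below that value in both groups. In 1 group, 8 of the 9 tested math genes were at or below it, against 2 of 25 bath genes and 20.2% of all tested genes. Most such genes entered the test through their other group. Among the 26 untested math genes above 0, 17 were lower and 9 higher in sig-7 RNAi, and 62.4% of all untested rows above 0 were lower. In bulk RNA of mixed stages, fewer cells that use a gene and less of its RNA per cell cannot be told apart.

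**Figure D2:**
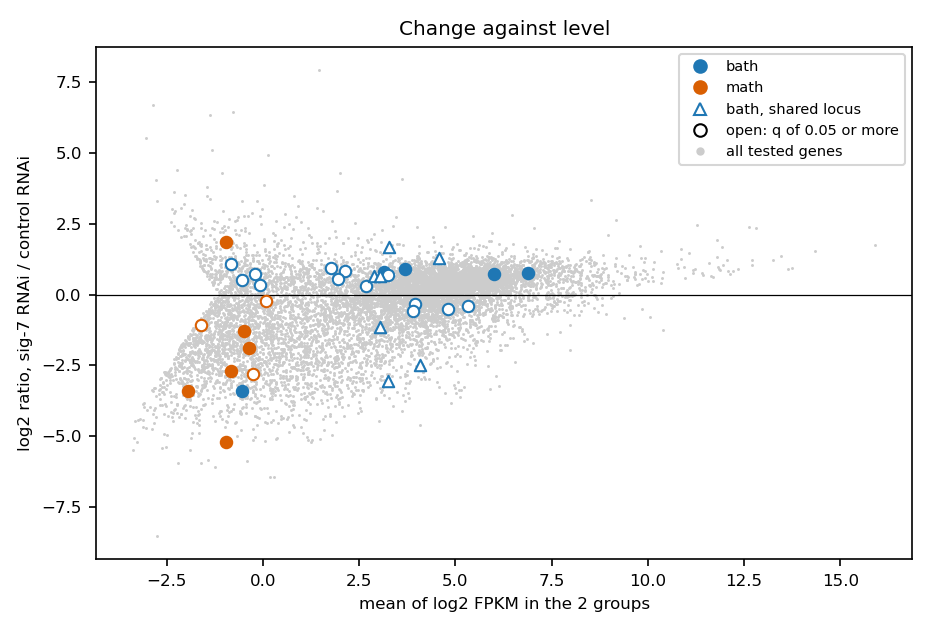
Log2 ratio, sig-7 RNAi over control (y axis), against the mean of the log2 FPKM values of the 2 groups (x axis), for all tested genes above 0 in both groups (grey), bath genes (blue) and math genes (orange). Filled symbols passed the deposited test at q under 0.05, and triangles are bath genes whose deposited locus is shared by 548 rows. Math genes sit at the low end, where the grey cloud splits and few genes low in both groups were tested, and the triangles lie off 0 without being called.

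The bath genes highest in both groups, bath-42 and bath-41, stand alone in the genome. On chromosome III, bath-42 (8161801 to 8163261 on ce10, the build of the files) went from 90.8 to 155.0 FPKM. It rose 1.71-fold, with q = 0.00162 in the authors' deposited table. A second gene of that chromosome, bath-41 (6720594 to 6722202), rose 1.66-fold, from 49.6 to 82.1 FPKM, with q = 0.0055 in the authors' deposited table. The third, bath-15 (7774815 to 7775949), went from 6.67 to 11.6 FPKM, a 1.74-fold rise with q = 0.0427 in the authors' deposited table. The equal-median scaling leaves log2 ratios of 0.78 for bath-42, 0.73 for bath-41 and 0.80 for bath-15. Scaled to equal totals, the log2 ratios are 0.02 for bath-42, 0.04 for bath-15 and -0.027 for bath-41, so the direction of bath-41 turns. The deposited folds of bath-42, bath-41 and bath-15 all exceed the 1.40-fold total over rows with a protein-coding name. Scaling by that smaller total would turn none of them.

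Other stand-alone bath genes had lower values in sig-7 RNAi and did not pass. The control and sig-7 RNAi values were 46.1 and 34.6 FPKM for bath-43, on the same chromosome. On chromosome I, bath-40 was at 33.6 and 23.4 FPKM. On chromosome II, bath-38 was at 18.3 and 12.2 FPKM and bath-44 at 17.2 and 13.8 FPKM. Their q-values in the authors' deposited table were 0.176, 0.0962, 0.0837 and 0.525. Equal total FPKM makes these differences larger, with a log2 ratio of -1.34 for bath-38 and -1.28 for bath-40. On chromosome V, bath-39 was at 5.73 and 7.08 FPKM and bath-36 at 3.20 and 4.71 FPKM, both short of the threshold and both lower with equal total FPKM. Of the 9 tested bath genes outside clusters, 5 were thus higher and 4 lower as deposited, and 2 were higher with equal total FPKM.

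The deubiquitinase gene math-33 (chromosome V, 11114026 to 11118135) was at 56.6 and 71.6 FPKM in control and sig-7 RNAi, 1.26-fold apart with no test and lower with equal total FPKM. It is the member with most isoforms in the deposited isoform table, which divides it into 8. Of these, 4 were higher and 4 lower in sig-7 RNAi. The highest isoform in the control had 16.3 FPKM there and 8.80 FPKM in sig-7 RNAi, and the highest in sig-7 RNAi went the other way, from 8.12 to 22.7 FPKM. The test failed for all 8, so whether isoform use differed was not tested by the authors. The only member with more than 1 tested isoform was bath-44, at 9.20 and 7.27 FPKM for the first isoform and 7.99 and 6.53 FPKM for the second, both lower in sig-7 RNAi and both short of the threshold.

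Most members lie in arrays on the left arm of chromosome II. That chromosome holds 71 of the 83, 26 bath and 45 math genes. Members whose deposited loci lie within 50 kb of each other were joined, which gave 4 clusters of 3 or more members. From left to right they hold 5, 47, 4 and 9 members, and are called the first to the fourth cluster here. The remaining 18 members lie outside them.

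The first cluster (1577485 to 1606150, 28.7 kb) was almost silent. It contains 4 bath genes and math-38, of which bath-33 alone was tested. The level of bath-33 fell 10.6-fold, from 2.22 to 0.210 FPKM, with q = 0.00114 in the authors' deposited table. That sig-7 RNAi value lies under the highest untested level, 0.457 FPKM. No other bath gene had a deposited q under 0.05 with a lower value, though bath-10 and bath-9 of the fourth cluster were lower without a call. The neighbours of bath-33, namely bath-46, bath-26, bath-47 and math-38, were all at or below 0.0585 FPKM in both groups. The 5 other genes of the interval were at most 0.0792 FPKM in either group and were not tested. Further left, outside any cluster, math-34 (1026977 to 1033604) fell 6.46-fold, from 1.43 to 0.221 FPKM, with q = 3.18e-05 in the authors' deposited table.

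The second and largest cluster (1763378 to 2046661, 283.3 kb) holds 37 math and 10 bath genes. All 10 bath genes were higher in sig-7 RNAi as deposited, and 8 of them were tested. In chromosomal order the first group of neighbours was bath-4 at 3.25 and 5.86 FPKM, bath-7 at 0.678 and 1.12 FPKM and bath-2 at 7.51 and 12.3 FPKM in control and sig-7 RNAi. Further right, bath-21 was at 0.575 and 0.819 FPKM, bath-1 at 2.46 and 4.71 FPKM, bath-3 at 0.390 and 0.822 FPKM, bath-5 at 9.39 and 17.8 FPKM and bath-24 at 0.853 and 1.08 FPKM. Folds ran from 1.26 to 2.11, and levels within the group differed far more than the folds did. Only bath-5, the highest, rose, 1.89-fold with q = 0.0094 in the authors' deposited table. The nearest to the threshold after it were bath-1, bath-4 and bath-2, with q = 0.0611, 0.0717 and 0.0749 in the authors' deposited table. With equal total FPKM 4 of the 8 remained higher (bath-4, bath-1, bath-3 and bath-5) and 4 turned lower (bath-7, bath-2, bath-21 and bath-24). All 8 are on the same strand in the WBcel235 annotation, with annotated transcripts of 832 to 1120 bases. The untested pair bath-19 and bath-20 was at 0.265 and 0.335 FPKM and at 0.135 and 0.254 FPKM.

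The math genes of the largest cluster were low, and 11 of 37 were listed at 0 in both groups. Of the 6 tested, 5 were lower in sig-7 RNAi and 1 was higher. The protein-coding math-41 fell 3.66-fold from 1.50 to 0.411 FPKM with q = 0.000582 in the authors' deposited table. A fall of 10.5-fold was recorded for math-20, from 0.834 to 0.0797 FPKM, with q = 0.0102 in the authors' deposited table. From 1.12 to 0.453 FPKM, math-48 fell 2.46-fold with q = 0.0168 in the authors' deposited table. Against them, math-44 rose 3.64-fold, from 0.272 to 0.990 FPKM, with q = 0.023 in the authors' deposited table, and its direction held with equal total FPKM (log2 ratio 1.11). The pseudogene math-27 was 7.04-fold lower (2.24 and 0.318 FPKM) without passing, and the pseudogene math-47 was at 1.14 and 0.970 FPKM. Among the untested genes, math-28 and math-26, which flank math-27, were at 0.364 and 0.0575 FPKM and at 0.356 and 0.0756 FPKM. The authors' deposited table lists unadjusted p = 0.00811 and 0.0089 for them and no q below 1, because they were not tested.

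Direction changed along the largest cluster in blocks that members shared with other genes. The 40 tested genes of the interval comprise 14 members and 26 others. The first 18 in chromosomal order, from math-27 to C16C4.17, were all lower in sig-7 RNAi. Of them 11 fell, against 17.3% of all tested genes. This block holds math-27 and math-41, and the genes that fell in it include fbxb-13, fbxb-10, fbxc-19, fbxb-96, fbxb-95 and fbxb-98, whose products carry the F-box motif of another class of ubiquitin ligase adaptors. The next 8 were all higher, namely bath-4, bath-7, bath-2 and 5 genes with sequence names, of which F52C6.2 rose from 7.22 to 17.7 FPKM. After 3 lower genes (math-47, math-48 and ZK250.2), math-44 higher and math-20 lower, the last 9 were all higher. These are the 5 bath genes from bath-21 to bath-24, F59H6.3, cya-2, btb-4 and btb-3, and F59H6.3, annotated as a pseudogene, rose 5.25-fold. In the higher blocks of 8 and 9 genes, only 1 and 2 rose, against 11.2% of all tested genes, so their directions rest mostly on genes without a call. Lower fbxb genes were not particular to this interval. Across the whole gene table, 100 of the 106 tested fbxb genes were lower in sig-7 RNAi and 52 fell. Blocks of this kind were not compared with other intervals of the genome, and with equal total FPKM the higher blocks are broken up by genes whose log2 ratio was under 0.75.

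**Figure D3:**
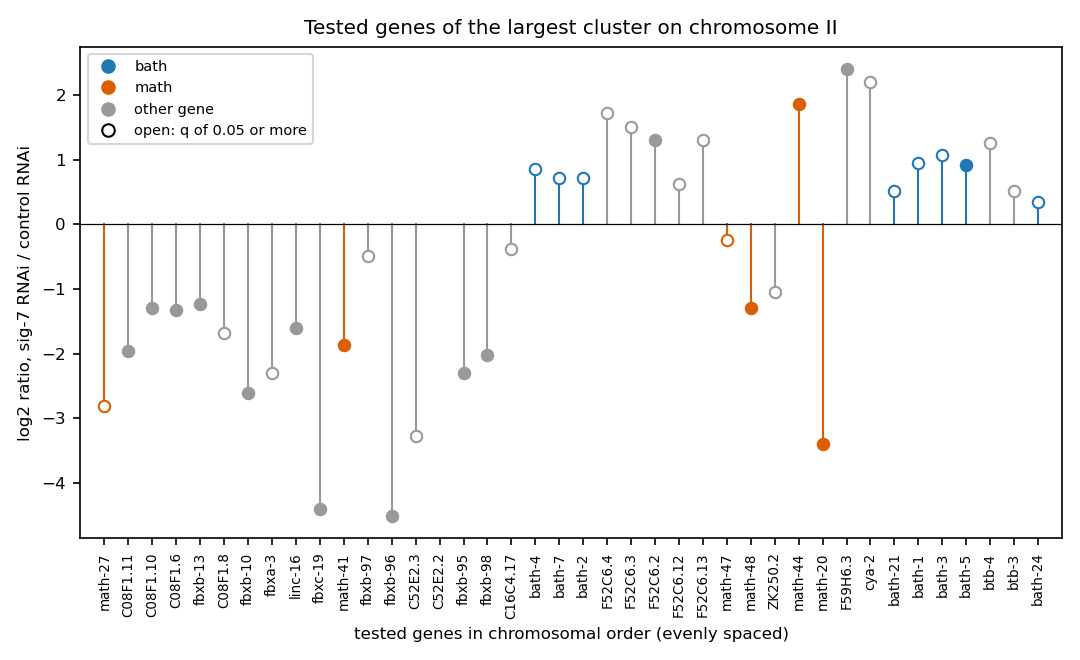
Log2 ratio, sig-7 RNAi over control (y axis, from pooled FPKM values) for the tested genes of the largest cluster in chromosomal order, evenly spaced (x axis). Blue points are bath genes, orange points math genes and grey points other genes, filled where the deposited q was under 0.05, and C52E2.2 has no point because it is listed at 0 in sig-7 RNAi. The first 18 genes are all lower, and the 8 bath genes lie in the blocks that are higher.

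The third cluster (2098998 to 2155056, 56.1 kb) has 4 math genes and holds the member with the largest fold. Its math-37 fell 37.2-fold, from 3.14 to 0.0843 FPKM, with q = 0.0266 in the authors' deposited table. The deposited locus of math-37 is shared by 9 rows, so its value is less certain, and its sig-7 RNAi value lies under the highest untested level. The genes around it were lower too. Within the same locus sdz-28 went from 99.5 to 10.2 FPKM, C40A11.4 from 23.0 to 2.68 FPKM and C40A11.3 from 12.6 to 0.389 FPKM, and all of these fell. Just outside that locus, C40A11.6 and C40A11.2 fell 19.4-fold and 10.5-fold. In all, 9 of the 10 tested other genes of the third cluster were lower and 5 fell, where 17.3% of all tested genes fell. The untested math-42, math-35 and math-18 were at 0.207, 0.137 and 0.0637 FPKM in the control and at 0.0366, 0.0468 and 0 FPKM in sig-7 RNAi.

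The fourth cluster holds 9 bath genes, 7 of them tested, and none passed the deposited test of Cuffdiff or had an unadjusted p under 0.05 in the authors' deposited table. The authors' table gives them a single locus of 1835.8 kb (2443297 to 4279128) that is shared by 548 rows. They were joined because of that shared locus, which does not give the distances between them. Their order is therefore taken from the WBcel235 annotation by name. Among the members, bath-13 leads, then come bath-28, bath-30, bath-29 and bath-27, and after them bath-23, bath-10, bath-9 and bath-31. In control and sig-7 RNAi, bath-28 was at 5.81 and 9.28 FPKM, bath-30 at 15.2 and 37.4 FPKM, bath-29 at 5.43 and 17.3 FPKM and bath-27 at 6.59 and 10.4 FPKM. All of these were higher in sig-7 RNAi as deposited, by 1.57-fold to 3.19-fold, and with equal total FPKM bath-30 and bath-29 stayed higher while bath-28 and bath-27 turned lower. The next tested members in that order had the opposite direction, with bath-10 8.20-fold lower (27.1 and 3.30 FPKM) and bath-9 5.60-fold lower (40.1 and 7.17 FPKM). Last in that order, bath-31 was at 12.2 and 5.53 FPKM. The untested bath-13 and bath-23 were at most 0.127 FPKM in both groups. The q-values of the 7 tested genes in the authors' deposited table ran from 0.614 for bath-9 to 1.00 for bath-28 and bath-27.

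The same held for the other genes of that locus. Cuffdiff called 0 of the 205 tested genes of that locus, and 0 had an unadjusted p under 0.05 in the authors' deposited table, although 90 of them were at least 2-fold apart. Across the gene table, 35.9% of tested genes with a locus of their own had q under 0.05, against 33.2% where 2 to 9 rows share a locus, 7.92% where 10 to 99 do and 0.117% (2 of 1703) where 100 or more do. Among genes at least 2-fold apart the shares were 69.1%, 61.9%, 19.8% and 0.199%. The 25 tested members with a locus of their own had 9 calls, 4 falls and 5 rises, and the other 2 calls, math-37 and math-48, came from loci of 9 and 2 rows.

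**Figure D4:**
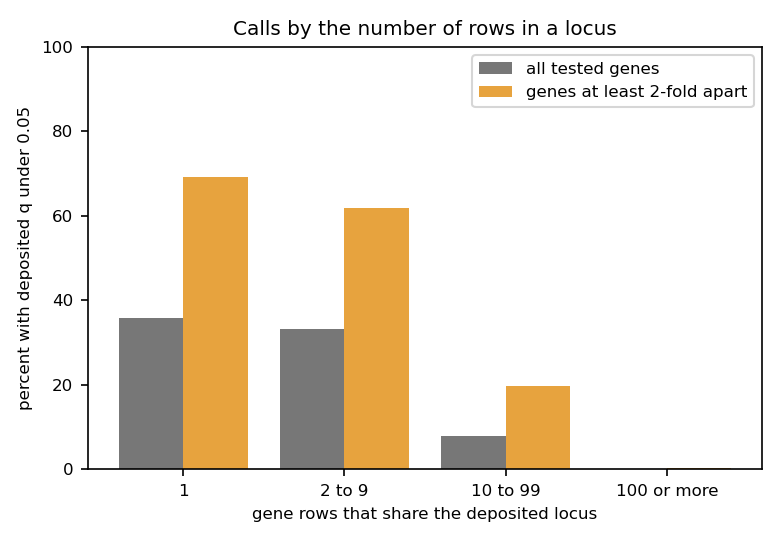
Percent of tested genes with deposited q under 0.05 (y axis) by the number of gene rows that share the deposited locus (x axis), for all tested genes (grey) and for those at least 2-fold apart between the groups (yellow). The share drops from 35.9% for genes with a locus of their own to 0.117% where 100 or more rows share it, the class that holds 7 tested bath genes.

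Genes of the CUL-3 ligase with which MATH-BTB proteins work were expressed far above most members. Of 16 genes examined 15 were found, all tested, and 2 fell and 4 rose. Over all tested genes 17.3% fell and 11.2% rose. The scaffold gene cul-3 fell 1.48-fold, from 39.6 to 26.8 FPKM, with q = 0.037 in the authors' deposited table, and dcn-1, which promotes attachment of NEDD8 to cullins, fell 1.64-fold, from 67.7 to 41.1 FPKM. The RING subunit gene rbx-1 rose 1.80-fold, from 169.6 to 304.5 FPKM. Of the COP9 signalosome genes, whose complex removes NEDD8, csn-2 (2.04-fold), csn-3 (1.73-fold) and csn-1 (1.59-fold) rose. Short of the threshold, csn-4 was at 41.3 and 71.0 FPKM in a locus of 196 rows, csn-6 was at 40.7 and 56.7 FPKM, and csn-5 was 1.08-fold lower. With equal total FPKM csn-1 turns to a log2 ratio of -0.087 and csn-6 to -0.28.

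The adaptor gene mel-26, a MATH-BTB gene outside the bath series, was at 65.7 and 98.0 FPKM, 1.49-fold higher and just short of the threshold with q = 0.0525 in the authors' deposited table, and it turns to a log2 ratio of -0.18 with equal total FPKM. Only bath-42 among the bath genes lay above it in both groups. Its substrate gene mei-1 was at 47.3 and 63.1 FPKM, and mei-2, the partner subunit of katanin, at 34.0 and 60.0 FPKM, but both lie in loci of more than 100 rows and mei-1 is lower with equal total FPKM. The list of the MEL-26 substrate and its regulators holds 6 genes, without mel-26 itself, which was counted with the CUL-3 ligase genes. Of these 6, 1 rose (ppfr-1, a phosphatase regulatory subunit gene, 25.5 and 40.1 FPKM, lower with equal totals) and 1 fell (zyg-8, a doublecortin-related kinase gene, 6.47 and 3.98 FPKM). The shares over all tested genes were 11.2% that rose and 17.3% that fell. Of 6 tested genes among other named BTB genes none passed the deposited test of Cuffdiff, and 1 (hpo-9, at 28.0 and 38.4 FPKM, lower with equal totals) had an unadjusted p under 0.05 in the authors' deposited table.

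Other large families of ubiquitin ligase adaptors gave different counts under the same test. Of 13 tested btb genes 6 fell and 1 rose, of 51 fbxa genes 3 fell and 11 rose, of 106 fbxb genes 52 fell and 1 rose, and of 33 fbxc genes 19 fell and 4 rose, against 6 falls and 5 rises among 34 bath and math genes and the shares of 17.3% and 11.2% over all tested genes. Near-identical copies in such families may share reads, and no source used here states how the authors divided them, so values of single array members are uncertain. The difference between families was not tested. Their shares of genes in loci of many rows, where few calls were made, were not compared either.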

How the data were processed

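Ribosomal RNA was removed from 1 µg of total RNA with a human, mouse and rat kit, and the rest was made into stranded libraries, per the labels' protocols. Per the submitters' processing notes the build was ce10 and the tools included TopHat2, Cufflinks 2.1.1 and Cuffdiff 2.0.2; no source used here gives their settings, gene models or handling of strand. Deposited by the authors were 3 Cuffdiff tables (37812 genes, 44542 isoforms, 38916 groups of isoforms with a shared start site). Per the file headers, each has a pooled FPKM per group, a log2 ratio between the groups, a test score, and the p-value and q-value of that score. Depth per library is unknown, so no interval or detection floor is given.

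Folds were computed from the deposited FPKM values, and for tested members the log2 ratios differed from the deposited ones by at most 9.54e-06. Members and lists were chosen with earlier results of these data known. Text names every called member, the 10 highest, the tested members of the largest cluster and list genes with calls; further members, and genes beside the clusters, were named after their values were seen. A cluster has at least 3 members with gaps of at most 50 kb between deposited loci, and the fourth cluster is a single shared locus. Deposited loci were taken to start at base 0 (end minus start is 21 for 3801 of 5329 lone 21U RNA loci) and are printed from base 1. Names were matched to WBcel235 for 82 members, which gave biotype, strand, transcript length and the order of genes within the fourth cluster; no coordinate of that build is printed. Python 3.11.15 and pandas 2.3.3 were used, and functions were tested on simulated data. No sequences were available for printing.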

Additional observations from a re-analysis of the deposited data

How the results depend on the processing

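No paired analysis was possible because the deposited columns are pooled per group; leaving out a replicate was not run for the same reason, and the planned comparison of shared 50-base words was not run because no transcript sequences were used. The 6 falls became 3 at q under 0.01, and the 5 rises became 3 at q under 0.01 and 8 at q under 0.1. At 1 FPKM or more, in the isoform and TSS group tables, and without shared loci or pseudogenes (both chosen after seeing the data), the falls were 4 to 6 and the rises 4 or 5. The median log2 ratio of tested members, 0.19, was 0.17 at 1 FPKM or more, 0 over all computed rows, 0.30 with a pseudocount of 0.1 FPKM, 0.32 with none, 0.21 without shared loci and 0.26 without pseudogenes. It turned to -0.27 with equal total FPKM, under which the bath median turned to -0.084 and the call of bath-41 to -0.027 (log2), because that scaling lowers every ratio. In all, 9 of 18 higher tested members turned lower under it, whereas with an equal median ratio all 34 kept their direction and the medians were 0.19 for members and 0.39 for bath genes. Of those 9, only bath-24 (1.26-fold) and bath-39 (1.24-fold) lay below 1.40-fold, the total over rows with a protein-coding name. With equal total FPKM, the median sig-7 RNAi level of all tested members, 5.12 FPKM, became 3.04 FPKM. With gaps of at most 20 kb the largest cluster had 25 members, and with 100 kb 52. Values under about 1 FPKM rest on few fragments of unknown number.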
